A study of Mus musculus with 2 samples.

Results

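The proteasome is the cell's main machine for breaking down ubiquitin-tagged proteins, and its subunit genes were followed here on 2 expression arrays of a mouse embryonic stem (ES) cell line. Every probe set with a single symbol of the Psma, Psmb, Psmc, Psmd, Psme, Psmf or Psmg series, a letter followed by a number, was taken. This gave 100 of the 45101 probe sets on the array and 47 of 18194 genes. Psme2 is no member, since the probe set that names it also names a second gene. Both arrays belong to 1 group: the ES line is deleted for 1.3 Mb of the Williams-Beuren syndrome region (genotype Del1.3MbWBS) and was grown with LIF and 20% serum replacement on feeder cells. No line without the deletion was analysed here, so the values describe this culture and contain no genotype comparison, and both arrays come from 1 line. The labels call the arrays biological replicates and name no separate cultures, so part of their spread may be technical.

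The proteasome is built from separable parts. The barrel-shaped core has outer rings of alpha subunits, which gate the entrance, and inner rings of beta subunits, some of which cut peptide bonds. The regulatory cap recognises ubiquitin, removes it, unfolds the substrate with a ring of ATPases and feeds it into the core. Interferon-gamma makes cells swap the catalytic beta subunits for immunoproteasome versions, whose peptides suit presentation on MHC class I, and activator rings can bind the core in place of the cap. High proteasome activity has been described in human ES cells. NRF1, the product of Nfe2l1, drives subunit genes together through antioxidant response elements when proteasome activity falls.

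Promoter sequences were taken from RefSeq for GRCm38.p6 as windows from 250 bases before to 50 after the start, which were present for 39 of the 47 genes. The antioxidant response element, searched as TGACNNNGC on both strands, occurred in the windows of 6 of the 39 genes (15.4%), namely Psmb5, Psmb6, Psmc6, Psmd12, Psmd9 and Psme4. It occurred in 14% of 27025 genes with a window and in 16.1% of the 14453 that were also on the array, so the share among proteasome genes was near that of other genes. The first 4 holders in symbol order that belong to the core or the cap are shown because they carry this element in genes of both parts. The capitals mark the element, and only the 250 bases before the start are given.

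Psmb5 promoter, chr14:54617996-54618245, strand -: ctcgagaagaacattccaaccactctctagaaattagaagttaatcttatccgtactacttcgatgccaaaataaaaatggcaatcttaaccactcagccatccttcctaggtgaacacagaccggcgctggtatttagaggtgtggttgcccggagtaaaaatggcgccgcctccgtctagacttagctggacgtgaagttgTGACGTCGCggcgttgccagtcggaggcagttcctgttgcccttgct
Psmb6 promoter, chr11:70525107-70525356, strand +: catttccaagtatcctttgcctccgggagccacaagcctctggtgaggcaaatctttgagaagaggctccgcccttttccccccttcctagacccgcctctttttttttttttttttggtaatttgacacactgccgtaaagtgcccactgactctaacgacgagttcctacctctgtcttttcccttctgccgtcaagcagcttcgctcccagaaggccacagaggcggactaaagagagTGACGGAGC
Psmc6 promoter, chr14:45329574-45329823, strand +: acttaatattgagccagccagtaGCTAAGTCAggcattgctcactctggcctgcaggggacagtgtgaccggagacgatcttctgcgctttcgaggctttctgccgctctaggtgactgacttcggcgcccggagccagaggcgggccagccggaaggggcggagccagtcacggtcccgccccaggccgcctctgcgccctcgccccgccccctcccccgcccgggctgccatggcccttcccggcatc
Psmd12 promoter, chr11:107479278-107479527, strand +: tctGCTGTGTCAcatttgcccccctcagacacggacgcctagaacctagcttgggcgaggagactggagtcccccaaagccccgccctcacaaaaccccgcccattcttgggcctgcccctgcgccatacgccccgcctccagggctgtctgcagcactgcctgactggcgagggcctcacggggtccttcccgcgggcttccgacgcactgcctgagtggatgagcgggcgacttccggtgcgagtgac

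Counted from the start, with -1 as the last base before it, the element lay at -47 to -39 in Psmb5 and at -9 to -1 in Psmb6. In Psmc6 and Psmd12 it read on the opposite strand, at -227 to -219 and at -247 to -239. The next pair of promoters belongs to the inducible catalytic subunit gene Psmb8, which was above background, and to the thymus subunit gene Psmb11, which was the member gene that was not. Capitals mark matches to the antioxidant response element, the interferon response element (GAAANNGAA) or the gamma-activated site (TTCNNNGAA), each searched on both strands.

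Psmb8 promoter, chr17:34197945-34198194, strand +: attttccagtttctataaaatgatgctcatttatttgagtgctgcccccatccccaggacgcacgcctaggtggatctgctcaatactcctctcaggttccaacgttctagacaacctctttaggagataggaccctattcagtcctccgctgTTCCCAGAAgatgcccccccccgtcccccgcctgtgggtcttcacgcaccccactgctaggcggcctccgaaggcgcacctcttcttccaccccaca
Psmb11 promoter, chr14:54625060-54625309, strand +: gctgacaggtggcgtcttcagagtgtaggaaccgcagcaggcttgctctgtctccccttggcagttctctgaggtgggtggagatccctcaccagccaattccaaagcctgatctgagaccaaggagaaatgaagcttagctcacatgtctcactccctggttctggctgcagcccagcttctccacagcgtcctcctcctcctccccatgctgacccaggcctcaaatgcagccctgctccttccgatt

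The Psmb8 window held a gamma-activated site at -97 to -89, and these letters were not in the Psmb11 window. Among the 39 genes this site occurred in 3 (7.69%), Psmb8, Psmd2 and Psmg1, against 9.55% of all genes with a window and 8.57% of those on the array. The interferon response element was in 7 of 39 (17.9%), against 9.76% of all genes and 8.70% of those on the array: Psmb3, Psmb4, Psmc2, Psmd4, Psmd9, Psme1 and Psmg4. With a further A at its end it was in 5 of 39 (12.8%), against 3.99% and 3.63%. Not all matches lay before the start. The longer form lay at 9 to 18 in Psme1 and at 15 to 24 in Psmg4. The shorter form reached the start at -3 to 5 in Psmb4 and at -8 to 0 in Psmc2. The interferon response element was not in the windows of Psmb8, Psmb9 and Psmb10. A GC box (GGGCGG) was in 22 of 39 genes (56.4%), against 38.2% of all genes and 57.3% of genes on the array. The CCAAT box (CCAAT) was in 14 (35.9%, against 41.1% of all genes and 42% of genes on the array) and the TATA box (TATAAA) in 4 (10.3%, against 15.7% and 11.5%). The observed-to-expected CpG ratio had a median of 0.763 over the 41 windows of proteasome genes. It was 0.650 over windows of genes on the array and 0.384 over all windows. The lowest were Psmb11 (0.165), 1 of the windows of the alpha ring gene Psma6 (0.185, and 0.697 in its other window) and Psmb10 (0.192).

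Psmb5 and Psmb11 are next to each other in the RefSeq gene order, the only adjacent pair among the members, which lie on 16 chromosomes. Psmb8 and Psmb9 lie on either side of Tap1, the gene of a peptide transporter subunit, in the MHC region. None of the 47 genes lies between Gtf2i and Fkbp6, the genes at the ends of the Williams-Beuren segment.

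Values are RMA log2 values, with 1 value per probe set and array. Probes bind with unequal affinity, so a higher value on one gene's probe set does not show more transcript than on another's, and medians or sums over genes describe array signal only. Above background means that the mean and both single-array values exceeded the 95th percentile over 39 olfactory receptor genes, for which ES cells are expected to hold no transcript. This threshold was 5.59 for the mean, 5.60 on replicate 1 and 5.58 on replicate 2. The probe set with the highest mean stood for a gene. Array medians were 6.01 on both replicates. Precision is limited by the number of arrays.

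Of the 47 proteasome genes 46 were above background (97.9%), against 68.4% of all genes on the array. The median array signal of the genes was 11.84, beside 7.19 over all genes. Of single probe sets, 81 of 100 were above background, against 61.8% of all probe sets with 1 symbol. The share of 68.4% also applies to the class and marker counts below, and a class of few genes can be full at that share. The culture held ES cells and feeder cells, and in bulk RNA fewer cells of a type and less RNA per cell cannot be told apart.

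**Figure D1:**
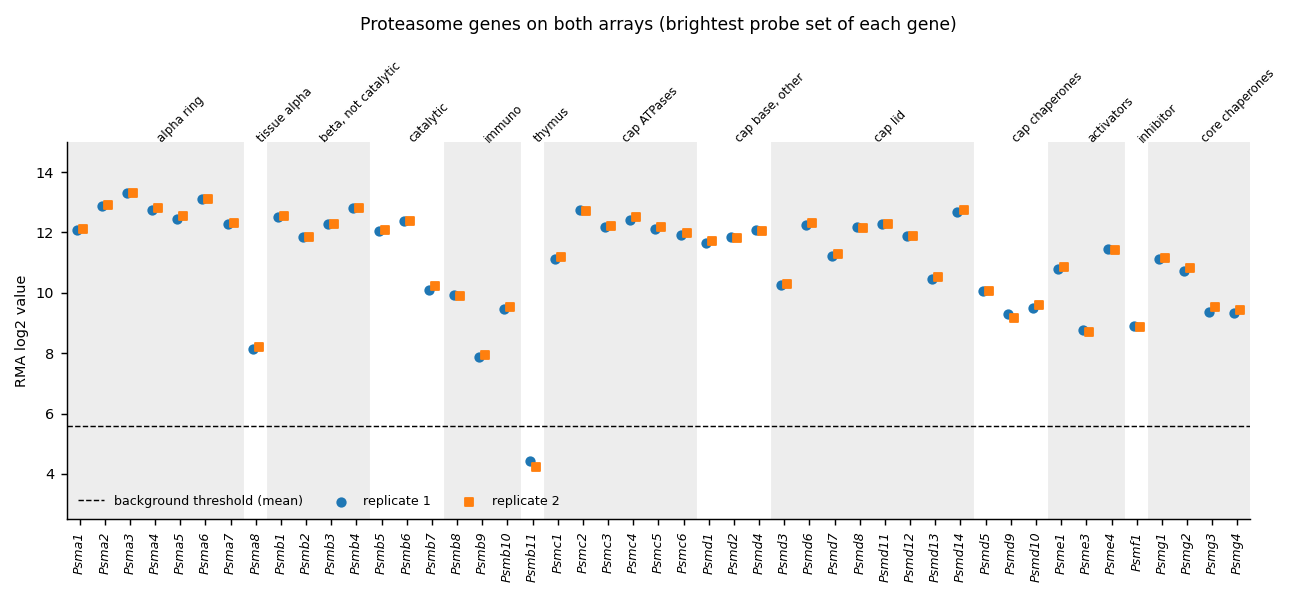
Values of the 47 proteasome genes, with genes on the x axis grouped by part and the RMA log2 value of the brightest probe set on the y axis; circles are replicate 1, squares replicate 2, and the dashed line is the background threshold of 5.59. Psmb11 alone lies below the line, and the symbols of both replicates nearly coincide for most genes.

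All 7 genes of the common alpha ring were above background, with means from 12.08 to 13.29. Psma3 read 13.29 on both arrays. Psma6 read 13.10 and 13.12 on replicates 1 and 2, and Psma2 read 12.87 and 12.90. Psma4, whose product has a main part in the gate of the ring, read 12.74 and 12.80. Psma5 read 12.45 and 12.53, Psma7 read 12.30 and 12.31, and Psma1 read 12.07 and 12.10. Replicate 2 was the higher array in 6 of the 7, by at most 0.081, against 56.8% of all genes. The Psma3, Psma5, Psma6 and Psma7 values are of probe sets whose suffix marks them as shared by several transcripts or genes, as the brightest one was in 18 of the 47 genes. On unshared probe sets Psma6 read 12.49 and 12.55, Psma7 read 11.49 on both arrays and Psma3 read 7.32 and 7.30. The unshared Psma5 probe set read 4.84 and 4.94, below the threshold.

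Psma8 encodes the alpha subunit that takes the place of the Psma7 product in spermatocytes. Its single probe set read 8.13 and 8.22, above background by 2.58 on the mean. Markers of spermatocytes were above background on the same arrays in 4 of 4 genes, against 68.4% of all genes. Their means ran from 5.75, near the threshold of 5.59, to 8.31. Among them the synaptonemal complex gene Sycp3 read 8.22 and 8.40. The summed level of these markers was 9.41 on replicate 1 and 9.55 on replicate 2 (log2 of the sum). The part of such cells or of such transcripts in the Psma8 value was not tested.

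The beta subunits without a catalytic site were all above background, 4 of 4. Psmb4, among the last subunits to join the half-core, read 12.80 and 12.81. Psmb1 read 12.51 and 12.53 on a shared probe set, and 5.93 and 5.78 on an unshared one. Psmb3 read 12.29 and 12.27, and Psmb2 read 11.84 and 11.83. The arrays differed by at most 0.020 in any of these 4 genes.

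The constitutive catalytic subunits were above background in 3 of 3 genes, against 68.4% of all genes. Psmb5, the chymotrypsin-like subunit and the target of the drug bortezomib, read 12.04 and 12.09 on a probe set marked as shared; it had no unshared one. Psmb6, the caspase-like subunit, read 12.38 on both. Psmb7, the trypsin-like subunit, read 10.10 and 10.23, with a difference of 0.12 that was inside the range seen at its level.

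The immunoproteasome counterparts were also above background in 3 of 3 genes, against 68.4% of all genes. Psmb8, which replaces the Psmb5 product, read 9.93 and 9.91. Psmb9, which replaces the Psmb6 product, read 7.86 and 7.92, with a mean 2.30 above the threshold. Psmb10, which replaces the Psmb7 product, read 9.45 and 9.53. Both arrays lay above the threshold for each of the 3. The labels name no interferon among the additions to the medium, and a part of interferon in these values was not tested. Both Psmb8 probe sets are marked as shared, and the other read 4.39 and 4.25 and was not above background.

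Psmb11, the thymus version of the Psmb5 and Psmb8 subunit, is known from cortical thymus epithelium. It read 4.44 and 4.24 on its only probe set, a mean of 4.34 that lay -1.25 from the threshold. A value below the threshold does not separate a silent gene from a weakly expressed one. Of the thymus epithelium markers, Foxn1, the master regulator of these cells, read 5.19 and 4.94 and was not above background, while Prss16 read 6.08 and 5.86 and was.

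Genes of the interferon-gamma response and of peptide loading were above background in 6 of 6 measured members, against 68.4% of all genes. Their means ran from 6.02, near the threshold of 5.59, to 13.58. The peptide transporter genes read 8.46 and 8.42 for Tap1 and 7.63 and 7.83 for Tap2. Tapbp, which encodes tapasin, read 10.29 and 10.32, and the transcription factor gene Irf1 read 9.17 and 9.19.

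Other cells in the culture can carry the same subunits. All 10 fibroblast markers, which stand for the feeder layer, were above background, against 68.4% of all genes. Their means ran from 8.98 to 14.87, with a summed level of 16.60 on both arrays. All 6 ES cell markers were above background too, with means from 9.76 to 12.63 and summed levels of 14.53 and 14.54. Of 5 measured blood cell markers 3 were above background, against 68.4% of all genes, with summed levels of 9.79 and 9.77. These were Lyz2 (9.32 and 9.34), Csf1r (6.86 and 6.60) and Cd3e (6.58 and 6.55), while Ptprc (3.96 and 4.14) and Itgam (3.87 and 3.98) were not. The part of feeder or blood cells in the level of any subunit, including the immunoproteasome, was not tested.

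**Figure D2:**
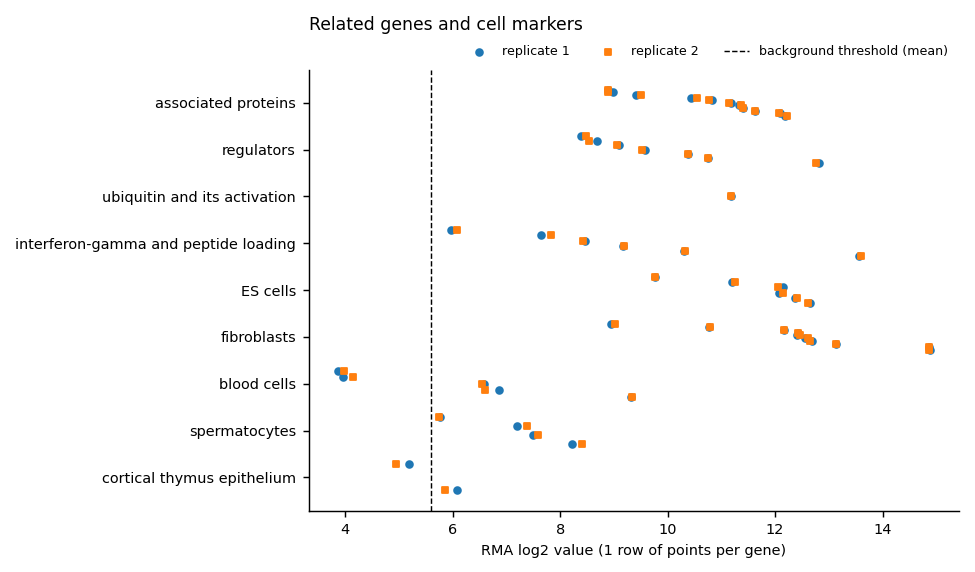
Genes of the related lists and of the marker lists (y axis, points offset by gene within a list) against their RMA log2 value (x axis); circles are replicate 1, squares replicate 2, and the dashed line is the threshold of 5.59. All measured genes of the related lists lie to its right, and Ptprc, Itgam and Foxn1 lie to its left.

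The ATPases of the cap, which grip and unfold the substrate, were above background in 6 of 6 genes. Psmc2 read 12.73 and 12.72, Psmc4 read 12.40 and 12.51, and Psmc3 read 12.18 and 12.20. The remaining ATPase genes were Psmc5 at 12.12 and 12.17, Psmc6 at 11.93 and 11.98, and Psmc1 at 11.13 and 11.17. Psmc2 and Psmc6 are also on shared probe sets; unshared ones read 12.32 on both arrays for Psmc2 and 8.15 and 8.17 for Psmc6. Replicate 2 was higher in 5 of the 6, against 56.8% of all genes. The Psmc4 difference of 0.11 on a shared probe set lay just beyond the central range at its level (-0.097 to 0.099), and its unshared probe set, at 11.46 and 11.53, did not.

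The other subunits of the cap base were above background in 3 of 3 genes. Psmd1 and Psmd2 are the large scaffolds, and read 11.66 and 11.71, and 11.85 and 11.80. Psmd4, a ubiquitin receptor with shared probe sets only, read 12.09 and 12.05.

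All 8 lid genes among the members were above background. Psmd14, the deubiquitinase that strips ubiquitin chains from the substrate, read 12.68 and 12.74. Psmd7, its structural partner, read 11.21 and 11.29. Psmd6 read 12.26 and 12.31, Psmd11, which helps join the lid to the rest of the particle, read 12.29 and 12.28, and Psmd8 read 12.19 and 12.15. Psmd12 read 11.88 and 11.89, Psmd13 read 10.45 and 10.54, and Psmd3 read 10.27 and 10.28. Psmd11, Psmd12, Psmd13 and Psmd14 are on shared probe sets. On unshared ones Psmd11 read 11.30 and 11.35 and Psmd13 read 6.88 and 6.93, and the other two had none. The median difference between the arrays over the 8 was 0.030.

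Chaperones that assemble the cap base were above background in 3 of 3 genes. Psmd5 read 10.07 and 10.06, Psmd10, also known as gankyrin, read 9.50 and 9.59, and Psmd9 read 9.28 and 9.17. The Psmd10 value is of a shared probe set, and it had no unshared one.

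Chaperones of the core were above background in 4 of 4 genes. Psmg1 and Psmg2, which work as a pair to build the alpha ring, read 11.13 and 11.16, and 10.73 and 10.83; Psmg2 read 10.48 on both arrays on an unshared probe set. Psmg3 and Psmg4, a second pair, read 9.37 and 9.53, and 9.34 and 9.42. Replicate 2 was higher in all 4, by 0.029 to 0.16, against 56.8% of all genes.

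The activators were above background in 3 of 3 measured genes. Psme1, a subunit of the interferon-inducible activator ring, read 10.80 and 10.87. Psme3, which forms the nuclear activator ring, read 8.75 and 8.71. Psme4, the large single-chain activator known for its role in histone breakdown during sperm formation, read 11.46 and 11.42 on a shared probe set, and 10.84 and 10.73 on an unshared one. Of the 6 Psme4 probe sets 5 were lower in replicate 2, by 0.033 to 0.11; they share their target gene and are not separate measurements of a condition.

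Psmf1, which encodes a protein described as a proteasome inhibitor in vitro, read 8.89 and 8.87. This was the brightest of its 4 probe sets, whose means ran down to 5.44, below the threshold.

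Associated proteins that are no members were above background in 11 of 11 measured genes, against 68.4% of all genes. The cap subunit gene Sem1 read 12.18 and 12.22, and Pomp, the chaperone that is digested when the core matures, read 12.10 and 12.07. The ubiquitin-removing enzymes of the cap read 10.44 and 10.54 for Uchl5 and 10.82 and 10.78 for Usp14. Regulators were above background in 7 of 7 measured genes, against the same 68.4%. Nfe2l1, the main activator of subunit genes, read 10.38 and 10.37, and its relative Nfe2l2 read 10.74 and 10.75. Ngly1, which removes sugars from the Nfe2l1 product, read 8.68 and 8.53, and Keap1, the inhibitor of the Nfe2l2 product, read 8.40 and 8.47. In the ubiquitin list only the activating enzyme gene Uba6 had a probe set of its own, at 11.17 and 11.19.

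Probe sets of the same proteasome gene often gave different values. Of the 47 genes 26 had several probe sets, and in 16 of these (61.5%) they lay on both sides of the threshold, against 43.5% of all genes with several. The gap between the brightest and the dimmest probe set of a gene had a median of 5.64, against 2.18 over 9012 genes with several, and ran from 0.090 in Psmb4 to 8.64 in Psmc2. Neither this gap nor the share of 61.5% was compared at like level. The median array signal was 11.84 over the proteasome genes and 7.19 over all genes. A dim gene has less room for a wide gap, so no trait of proteasome genes is read from these values. Psmd11 had 8 probe sets with means from 12.28 down to 3.69, and 6 of them were above background. Psma1 had 4, at 12.08, 6.58, 4.48 and 3.63. The dimmest probe set had a mean of 3.41 for Psmc1, 4.01 for Psmd2, 4.09 for Psmd7, 4.11 for Psmd9 and 3.55 for Psmg4. These means lay below the threshold. A Psmd13 probe set read 5.47 and 5.72, on either side of the threshold.

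**Figure D3:**
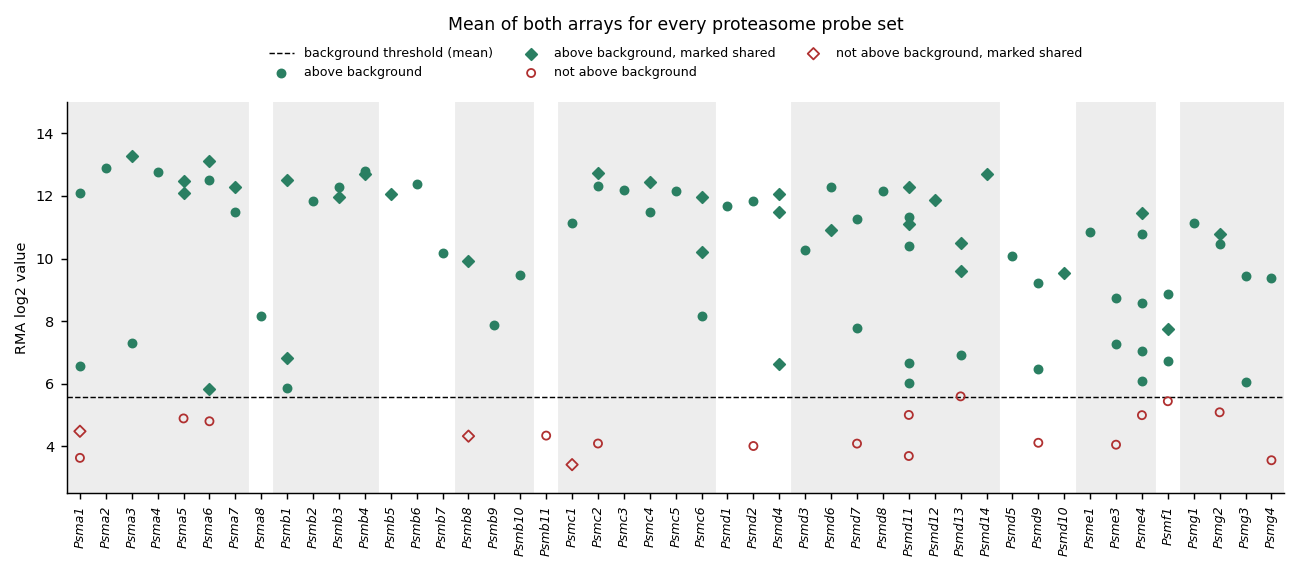
Mean RMA log2 value (y axis) of each of the 100 proteasome probe sets by gene (x axis); filled symbols are above background, open ones are not, diamonds are marked as shared, and the dashed line is the threshold of 5.59. In 16 genes filled and open symbols stand in the same column.

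The replicates lay close together for proteasome genes. Replicate 2 minus replicate 1 had an SD of 0.053 over the 46 genes that passed the threshold on either array, against 0.11 over all such genes. Among genes with a mean above 10.67 it was 0.041 over 32 proteasome genes and 0.056 over all 1820. No proteasome gene or probe set differed by 1.5-fold or more. Such a difference was rare in any case, with 10 of the 12769 genes that passed the threshold on either array (0.0783%). The median difference was 0.028 over the proteasome genes and 0.015 over all genes, and 31 of the 46 (67.4%) were higher in replicate 2, against 56.8% of all genes. Of their probe sets 56 of 82 were higher in replicate 2, against 56.3% of all probe sets. With 2 arrays there is no test of such a shift.

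At the level of probe sets, 2 of 82 (2.44%) lay outside the central 95% of differences among probe sets of like level, against 5.01% of all probe sets by construction. The first was the Psmc4 probe set above. The other was a second Psme3 probe set, which read 7.09 and 7.44, a difference of 0.35 where the central range ran from -0.25 to 0.27. The brightest Psme3 probe set differed by -0.042, which was not outside the range at its level. By gene, with each gene's brightest probe set set against those of genes of like level, 2 of 46 lay outside the central range, against 5.01% of all genes. These were Psmc4 and Psmg3, whose difference of 0.16 lay just above its range (-0.13 to 0.155). A dim Psmg3 probe set read 5.89 and 6.23, a difference of 0.34 that was inside the range at its level.

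**Figure D4:**
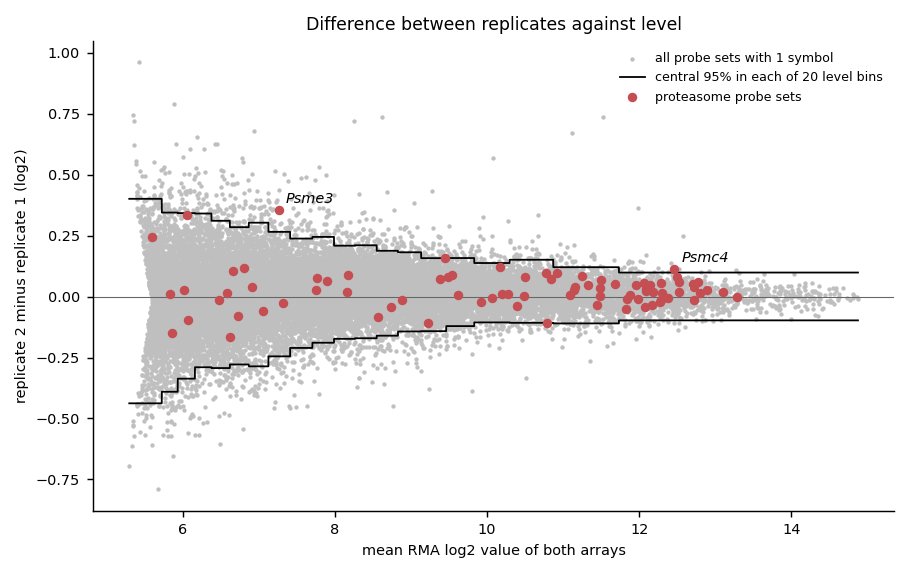
Difference between replicates (y axis, replicate 2 minus replicate 1, log2) against the mean of both arrays (x axis); grey points are all probe sets with 1 symbol above the threshold on at least 1 array, red points are the 82 proteasome probe sets among them, and black lines bound the central 95% in each of 20 level bins. The named Psme3 and Psmc4 points are the 2 outside these lines.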

How the data were processed

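The authors deposited log2 values for each probe set on each array, made with RMA (background correction, quantile normalization and probe set summary), per the submitters' processing notes; its version, and the arrays that were normalized jointly, are not given in these sources. Quantile normalization hides a change shared by most genes. Names came from the platform's annotation table: 34958 had 1 symbol, 932 several and 9211 none here. Per-sample columns that were not used numbered 0. The members, lists and rules were chosen with earlier results of these data known. Every measured member was named; of each related list the first 4 in order and any not above background were named.

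For replicate differences, probe sets above the threshold on at least 1 array were split into 20 bins of mean level. Scripts ran in Python 3.11.15 with numpy 2.4.6, pandas 2.3.3 and statsmodels 0.14.6, and were tested on simulated data. No p-value is given, since there is 1 group of 2 arrays. Promoter motifs other than the antioxidant response element were chosen after the member values were seen. Alternatives were other background thresholds, the median of all probe sets, unshared probe sets, loess, centring, bins, filters and each array alone.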

Additional observations from a re-analysis of the deposited data

How the results depend on the processing

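Of 144 values of 22 main results under other settings, 142 were within a factor of 1.5 of the reported one or, for the median difference, within 1 SD. These limits are wide: that SD, 0.053, is larger than the median difference of 0.028 itself. Some values could not move, since centring shifts every difference alike and leaves their SD and the count outside the range as they were. The class counts are parts of the count over all proteasome genes, so they do not stand apart from it. The median difference was 0.021 to 0.027 under the other settings. The count of proteasome genes above background was 46 of 47 with the highest olfactory receptor gene, their 90th percentile, the vomeronasal and taste receptor genes, the median of all probe sets and each array alone (46 to 46), and 39 of the 41 genes still measured with unshared probe sets, where Psma5 joined Psmb11. The probe set count of 81 ranged from 76 to 83, and was 81 to 82 with each array alone; a threshold from every olfactory receptor probe set, chosen after seeing the data, gave 81. The interferon-gamma and peptide loading count fell from 6 of 6 to 3 of 3 with unshared probe sets, because fewer genes were then measured. A gene of this list also dropped below background under other settings. The count was 5 of 6 with the vomeronasal and taste receptor threshold of 6.08, above the Nlrc5 mean of 6.02. Setting each gene's level to the median over its own probe sets likewise gave 5 of 6. With 10 bins of mean level, 1 proteasome probe set in place of 2 lay outside the central 95%; the cause was not tested. Gene levels moved by more than their SD in 26 of 47 genes with the median of all probe sets, falling by up to 6.55, and in 12 of the 41 genes measured with unshared probe sets, falling by up to 7.60 (Psma5); Psmb1 then fell from 12.52 to 5.85, Psmc6 from 11.95 to 8.16 and Psmd13 from 10.49 to 6.90. Because the reported level is of the brightest probe set, both settings can only lower a gene or leave it as it was. The 21 genes with 1 probe set could not move with the median. No paired analysis was possible because the series has 1 group only. Signal over background limits the dim probe sets: near the threshold, silence and weak expression look alike.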
